A study of Rattus norvegicus with 4 samples.

Results

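The genes described are 10 rat genes of innate immune sensing: the Toll-like receptors Tlr2, Tlr3 and Tlr4, their adaptor Myd88, the NF-kB subunits Nfkb1 and Rela, the NF-kB inhibitors Nfkbia and Tnfaip3, and the inflammasome genes Nlrp3 and Casp1. They were found on 4 Agilent 2-colour arrays by the accession given for each probe. A probe was matched for 9 of the 10, of 26650 genes and unnamed transcripts on the array, with 11 probes and 29 spots per array in all. Tnfaip3 had no matched probe and is not analysed here. Of the 9 genes, 8 passed the filter on dim probes and were tested, and Nlrp3 did not pass. The members were named by pathway, with earlier results of these data known.

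Toll-like receptors recognise molecules of microbes and of damaged tissue, Tlr2 and Tlr4 at the cell surface and Tlr3, a sensor of double-stranded RNA, in endosomes. Tlr2 and Tlr4 pass the signal through Myd88, and it ends in the release of NF-kB, a dimer of subunits such as p50, made from Nfkb1, and p65, encoded by Rela. Nfkbia (IkB-alpha) and Tnfaip3 (A20) are induced by NF-kB and shut it down again. Nlrp3 assembles the inflammasome, in which Casp1 matures interleukin-1 beta, and in the spinal cord this pathway is known mainly from microglia, the resident macrophages.

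Total RNA of the spinal dorsal horn, where sensory fibres end, came from male rats aged 6 weeks that had received oxaliplatin, a platinum chemotherapy drug, or vehicle. The samples are labelled as day 10, and there were 2 arrays per group, called biological replicates in the labels. On all 4 arrays the labels place RNA of untreated rats in the Cy3 channel and RNA of the oxaliplatin or vehicle rats in the Cy5 channel, with no dye swap. The drug dose and the number of rats behind an array are not given in the sources used here, so the p-values measure the spread between these arrays.

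In all, 80.0% to 89.7% of spots were well above background in Cy3 and 85.2% to 87.6% in Cy5. Oxaliplatin replicate 2 was the dimmest array in Cy3, with a median of 283.5, beside 494 to 564 elsewhere. Both oxaliplatin arrays lay on 1 slide and both vehicle arrays on another, so slide and group cannot be told apart. By the file headers the oxaliplatin arrays shared a scan date entry, while vehicle replicates 1 and 2 each had a different one. Scan and group thus cannot be told apart either, and the vehicle arrays also differed from each other in scan. Markers of dorsal horn neurons were present: 11 of 12 had a probe, and all 11 were well above background in both channels on at least 1 array. Markers of Schwann cells and sensory ganglion neurons, cells outside the cord, had medians of 2.68 to 3.02 for the log2 ratio of Cy5 over Cy3, and those of oligodendrocytes medians of -1.37 and -1.04 on the oxaliplatin arrays and of -1.73 and -2.07 on the vehicle arrays.

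The assignment of RNA to dyes bears on every sign below. The protocol text names Cy3 labelling only. Between arrays the signals of the 8 tested genes ranged by 1.02-fold to 1.29-fold in Cy5 and by 1.52-fold to 3.99-fold in Cy3. Whether the labels hold was not tested. Differences are therefore given as coded: the mean log2 Cy5/Cy3 ratio of the vehicle arrays is subtracted from that of the oxaliplatin arrays. A higher ratio means more RNA after oxaliplatin relative to untreated rats if the labels hold. If Cy3 held the RNA of the treated rats, each sign turns.

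Promoter sequences of RefSeq (build GRCr8) were available for all 10 genes, as windows from 250 bases before to 50 after the start. The κB consensus, the DNA motif bound by NF-kB, was found on either strand in 4 of the 10 windows (Tlr2, Nfkb1, Nfkbia and Tnfaip3) and in 7.51% of all 33469 windows of that length. The windows of the 3 measured genes that hold it are shown, 5′ to 3′ on the gene's strand, because these genes are both part of the pathway and known targets of it. Capitals mark the κB matches, and overlapping matches on both strands run together in Tlr2.
Tlr2 promoter, chr2:171504508-171504807, minus strand: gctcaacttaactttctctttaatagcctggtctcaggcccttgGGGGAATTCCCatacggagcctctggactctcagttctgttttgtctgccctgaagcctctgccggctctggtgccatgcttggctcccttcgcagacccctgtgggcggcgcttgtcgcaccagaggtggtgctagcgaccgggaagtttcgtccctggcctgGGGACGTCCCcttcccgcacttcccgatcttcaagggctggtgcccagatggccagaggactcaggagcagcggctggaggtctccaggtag
Nfkb1 promoter, chr2:226805413-226805712, minus strand: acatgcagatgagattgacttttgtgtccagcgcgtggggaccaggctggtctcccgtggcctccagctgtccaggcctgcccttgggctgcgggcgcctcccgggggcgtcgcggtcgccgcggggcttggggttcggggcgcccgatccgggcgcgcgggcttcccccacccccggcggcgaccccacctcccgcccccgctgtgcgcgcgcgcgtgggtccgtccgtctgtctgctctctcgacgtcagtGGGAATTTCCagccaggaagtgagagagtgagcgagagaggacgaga
Nfkbia promoter, chr6:78597023-78597322, minus strand: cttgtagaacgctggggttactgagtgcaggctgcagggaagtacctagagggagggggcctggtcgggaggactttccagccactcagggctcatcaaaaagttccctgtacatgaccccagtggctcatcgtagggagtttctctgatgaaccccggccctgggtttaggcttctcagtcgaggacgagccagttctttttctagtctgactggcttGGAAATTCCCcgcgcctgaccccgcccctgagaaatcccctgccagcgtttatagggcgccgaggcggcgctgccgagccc
An element bound by interferon regulatory factors, spelled GAAA, any 2 bases and GAAA again, was found on either strand in the windows of Myd88 and Casp1 and in 3.92% of all windows. These are matches of letters, not measured sites.

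Of the surface receptors, Tlr2, which recognises bacterial lipoproteins, had log2 Cy5/Cy3 ratios of -0.79 and -0.31 on oxaliplatin replicates 1 and 2 and of -0.38 and 0.33 on vehicle replicates 1 and 2. The groups overlapped, since oxaliplatin replicate 2 lay above vehicle replicate 1. The difference in the ratio was -0.53 ± 0.26 (SE, n = 2 arrays per group, limma, adjusted p = 0.400). It was -0.28 without oxaliplatin replicate 1, -0.88 without vehicle replicate 1 and -0.17 without vehicle replicate 2.

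Tlr4, the receptor for lipopolysaccharide, had ratios of -0.28 and -0.038 on the oxaliplatin arrays and of -0.043 and 0.12 on the vehicle arrays. The higher oxaliplatin ratio and the lower vehicle ratio were nearly equal. The difference in the ratio was -0.20 ± 0.14 (adjusted p = 0.524). It was -0.079 and -0.32 when oxaliplatin replicate 1 or 2 was left out, -0.12 without vehicle replicate 2 and -0.33 with the log ratio of the scanner software. Its normalised log2 signals were higher on both oxaliplatin arrays than on both vehicle arrays in Cy5, at 8.02 and 8.02 against 7.80 and 7.82, and also in Cy3, at 8.30 and 8.06 against 7.84 and 7.70. Tlr4 was the only one of the 8 genes with an unadjusted p under 0.05 in Cy5 alone (0.0354). That difference was 0.21 (adjusted p = 0.224), and 0.093 (adjusted p = 0.478) with median scaling within the channel.

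Tlr3 split the arrays within each group. Its brighter probe had ratios of 0.43 and -1.30 on oxaliplatin replicates 1 and 2, and of 0.53 and -0.72 on vehicle replicates 1 and 2. Its other probe gave 0.019 and -1.26 on the oxaliplatin arrays and 0.21 and -0.80 on the vehicle arrays. On both probes, then, replicate 2 of each group had the lower ratio, and replicate 1 the higher. The second array differed from the first by -1.73 in the oxaliplatin group and by -1.24 in the vehicle group, sizes above those of 99.8% of all genes in each group. The median size of such a difference over all genes was 0.16 and 0.12. The split lay in Cy3, where the log2 signal was 8.75 and 10.57 on the oxaliplatin arrays and 8.58 and 9.98 on the vehicle arrays, while in Cy5 it was 9.18 and 9.27, and 9.11 and 9.26. Between the groups Tlr3 differed by -0.34 ± 0.59 in the ratio (adjusted p = 0.820). That direction turned without oxaliplatin replicate 2 (0.52) and without vehicle replicate 1 (0.28).

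Myd88, the adaptor of most Toll-like receptors, had log2 Cy5/Cy3 ratios of 0.29 and 0.15 on the oxaliplatin arrays and of 0.54 and 0.93 on the vehicle arrays. Both oxaliplatin ratios lay below both vehicle ratios. The difference in the ratio was -0.52 ± 0.16 (unadjusted p = 0.0143, adjusted p = 0.300), and leaving out any 1 array it stayed between -0.71 and -0.32, the smallest without vehicle replicate 2. In Cy5 the log2 signal was 11.946 and 11.999 on the oxaliplatin arrays and 11.976 and 11.997 on the vehicle arrays. In Cy3 it was 11.66 and 11.85 against 11.43 and 11.06. The groups were thus apart in Cy3 and overlapped in Cy5.

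Of the NF-kB subunits, Nfkb1 had ratios of -0.17 and 0.024 on the oxaliplatin arrays and of -0.37 and -0.57 on the vehicle arrays. The oxaliplatin arrays were thus the higher pair, without overlap. The difference in the ratio was 0.40 ± 0.13 (unadjusted p = 0.0223, adjusted p = 0.307), with the opposite sign in Cy3 alone (-0.44 ± 0.16) and little in Cy5 alone (-0.045 ± 0.070).

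Rela, by its brighter probe, had ratios of -0.54 and -0.056 on the oxaliplatin arrays and of -0.65 and -0.85 on the vehicle arrays. These groups were also apart, and the difference in the ratio was 0.45 ± 0.18 (unadjusted p = 0.0409, adjusted p = 0.329). The second probe of Rela, a single spot with Cy5 signals of 130.5 to 146, gave a difference of 0.046, with ratios of -0.38 and -0.0093 on the oxaliplatin arrays and of -0.43 and -0.054 on the vehicle arrays. The 2 probes thus disagreed in size, and on the dim probe the groups overlapped. Rela passed the test when oxaliplatin replicate 1 was left out (0.69, adjusted p = 0.0483), a fit in which the lone oxaliplatin array is assumed to vary like the vehicle arrays. The difference was 0.21 (adjusted p = 0.691) when oxaliplatin replicate 2 was left out, and 0.25 (adjusted p = 0.502) with the mean over both probes. Oligodendrocyte and astrocyte markers differed in the same direction as Nfkb1 and Rela, with 0 called. In each list 6 of 7 had higher ratios on the oxaliplatin arrays, 4 of them without overlap, beside 27% of all genes. The median difference was 0.44 for oligodendrocytes and 0.415 for astrocytes, of which 1 marker was lower without overlap. The part of either cell type in these values was not tested.

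Nfkbia, which holds NF-kB in the cytoplasm, differed most within the vehicle group. Its log2 Cy5/Cy3 ratios were 0.16 and 0.10 on the oxaliplatin arrays and 1.22 and -0.38 on the vehicle arrays. Both oxaliplatin ratios lay between the vehicle ratios. The second vehicle array differed from the first by -1.59, a size above that of 99.9% of all genes, and the second oxaliplatin array from the first by -0.059. In Cy3 the log2 signal of Nfkbia was 11.07 and 11.22 on the oxaliplatin arrays and 9.97 and 11.87 on the vehicle arrays, and in Cy5 it was 11.23 and 11.32 against 11.19 and 11.49. The difference in the ratio between the groups was -0.29 ± 0.45 (adjusted p = 0.794). It turned to 0.51 without vehicle replicate 1.

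Nlrp3, the sensor of the inflammasome, was near the limit of detection. It had 10 spots per array, of which 1 on oxaliplatin replicate 1, 2 on vehicle replicate 1 and 1 on vehicle replicate 2 were left out as outliers. Of the spots used, 6 of 9 and 0 of 10 were well above background in Cy5 on the oxaliplatin arrays, and 0 of 8 and 1 of 9 on the vehicle arrays. Its Cy5 signals were 84.7 and 81.95 on the oxaliplatin arrays and 97.9 and 81.4 on the vehicle arrays, against local backgrounds of up to 67.5. In Cy3, 9 of 9 and 0 of 10 spots were well above background on the oxaliplatin arrays, and 7 of 8 and 8 of 9 on the vehicle arrays. Its ratios, which rest on these dim signals, were -0.29 and -0.041 on the oxaliplatin arrays and -0.19 and -0.020 on the vehicle arrays, so the groups overlapped. The probe was not well above background in Cy5 on either vehicle array, and 1 of the 2 oxaliplatin arrays measured it, so no fold is given for Nlrp3.

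Casp1, the protease of the inflammasome, was well above background on all 4 arrays in both channels. Its ratios were -0.90 and -0.16 on the oxaliplatin arrays and -0.27 and -0.46 on the vehicle arrays, so both vehicle ratios lay between the oxaliplatin ratios. The difference in the ratio was -0.16 ± 0.24 (adjusted p = 0.785). It turned to 0.21 without oxaliplatin replicate 1, the array with the lowest ratio and the highest Cy3 signal (9.85, against 9.12 to 9.20 on the other arrays).

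**Figure D1:**
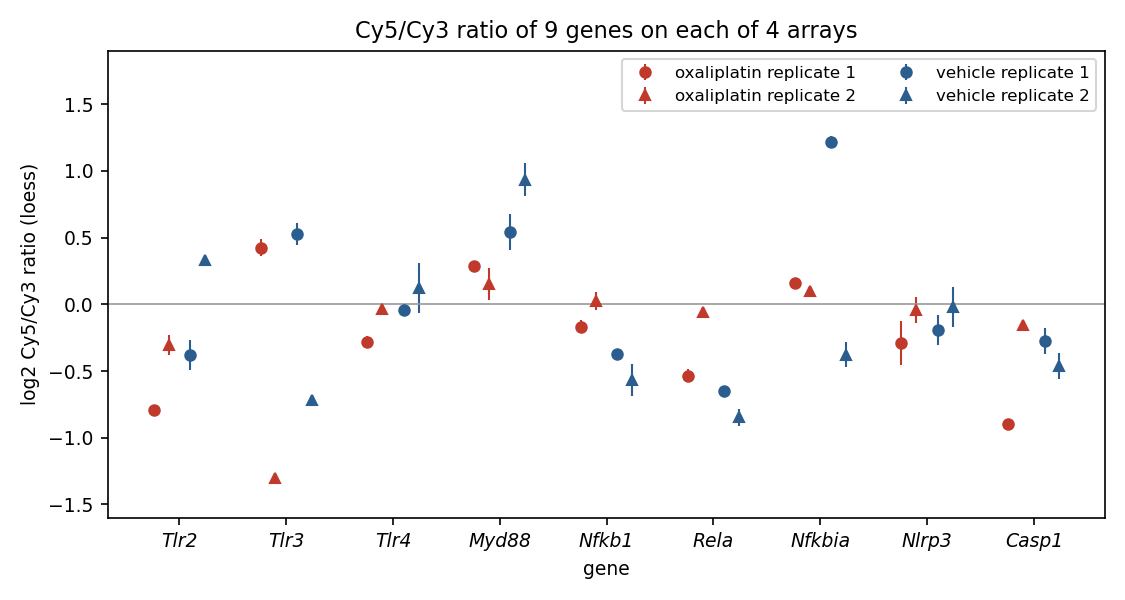
Normalised log2 Cy5/Cy3 ratio (vertical axis) of 9 genes (horizontal axis) on each of the 4 arrays, with 1 probe per gene, the brightest. Red marks oxaliplatin, blue marks vehicle, circles are replicate 1 and triangles replicate 2, and bars are the SD between the spots of the probe on that array. The arrays of a group lie furthest apart for Tlr3 (both groups) and Nfkbia (vehicle, 1.22 and -0.38), and the groups are apart for Myd88, Nfkb1 and Rela.

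Setting the oxaliplatin arrays against the vehicle arrays addresses which of these transcripts go with the drug and not with its vehicle. None of the 8 genes tested passed (0 called by limma at an adjusted p under 0.05), as was true of all 22817 genes (0%). At an unadjusted p under 0.05 there were 3 of the 8 (Myd88, Nfkb1 and Rela), beside 14.6% of all genes. The same 3 were those whose groups did not overlap, 2 with higher and 1 with lower ratios on the oxaliplatin arrays. Over all genes the groups did not overlap for 49.2%, with 27% higher and 22.2% lower. The median difference in the ratio over the 8 genes was -0.24, with 2 above and 6 below 0, and over all genes it was 0.0055. The 95% intervals of Tlr3 (-1.75 to 1.07) and Nfkbia (-1.36 to 0.78) were the widest and leave room for differences larger than any seen among the 8. Those of Tlr2 (-1.15 to 0.094), Myd88 (-0.90 to -0.14) and Casp1 (-0.72 to 0.40) do so as well. The same holds for Nfkb1 (0.076 to 0.72) and Rela (0.025 to 0.88). These intervals are not adjusted for the number of genes.

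**Figure D2:**
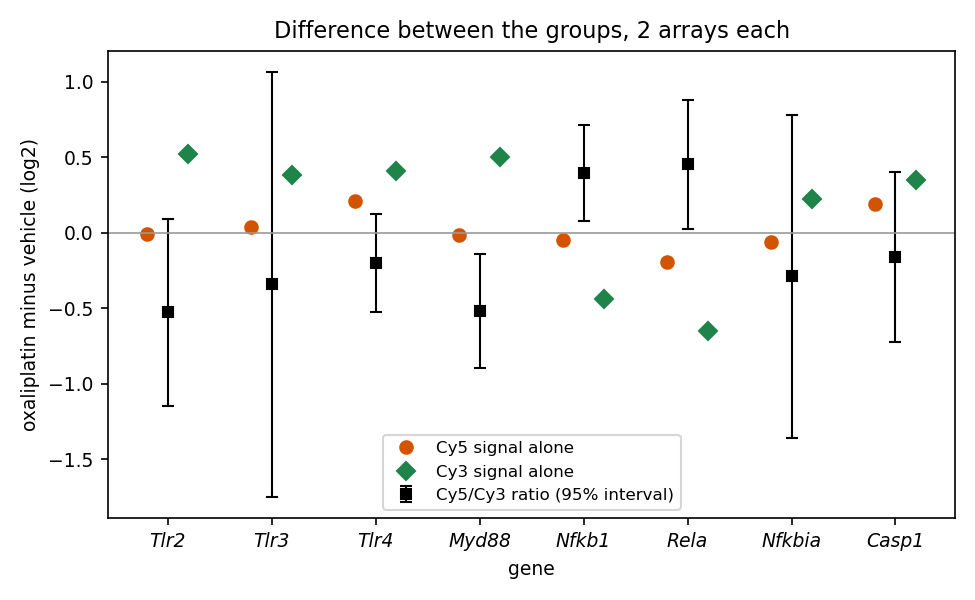
Oxaliplatin minus vehicle on the log2 scale (vertical axis) for the 8 genes tested (horizontal axis), n = 2 arrays per group. Black squares are the difference in the Cy5/Cy3 ratio with its 95% interval from limma, orange circles the difference in the Cy5 signal alone and green diamonds that in the Cy3 signal alone. For all 8 genes the difference in Cy3 is the larger in size of the 2 channels, for example 0.50 in Cy3 and -0.014 in Cy5 for Myd88. The difference in the ratio is that in Cy5 minus that in Cy3, so its sign is then opposite to that in Cy3 by arithmetic.

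Set side by side, the channels differed in how much the 4 arrays varied. The highest Cy5 signal of Tlr2 exceeded the lowest by 1.02-fold, and its highest Cy3 signal exceeded the lowest by 2.15-fold. For Tlr3 these ranges were 1.13-fold in Cy5 and 3.99-fold in Cy3, for Nfkbia 1.24-fold and 3.73-fold, and for Rela 1.29-fold and 2.22-fold. Casp1, Tlr4, Nfkb1 and Myd88 ranged by 1.04-fold to 1.21-fold in Cy5 and by 1.52-fold to 1.72-fold in Cy3. The SD over the 4 arrays was larger in Cy3 for all 8 genes, and this held for 75.35% of all 22817 genes. Its median over all genes was 0.13 in Cy5 and 0.21 in Cy3 (log2). With quantile normalisation or median scaling within each channel the SD was also larger in Cy3 for all 8. Between the groups, limma called none of the 8 genes in Cy5 alone (0 called, and 0% of all genes) or in Cy3 alone (0 called, and 0% of all genes). At an unadjusted p under 0.05 there was 1 of 8 in Cy5, beside 20.5% of all genes, and there were 4 of 8 in Cy3 (Tlr4, Myd88, Nfkb1 and Rela), beside 20.9%. Which channel held the RNA of the treated rats was not tested.

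**Figure D3:**
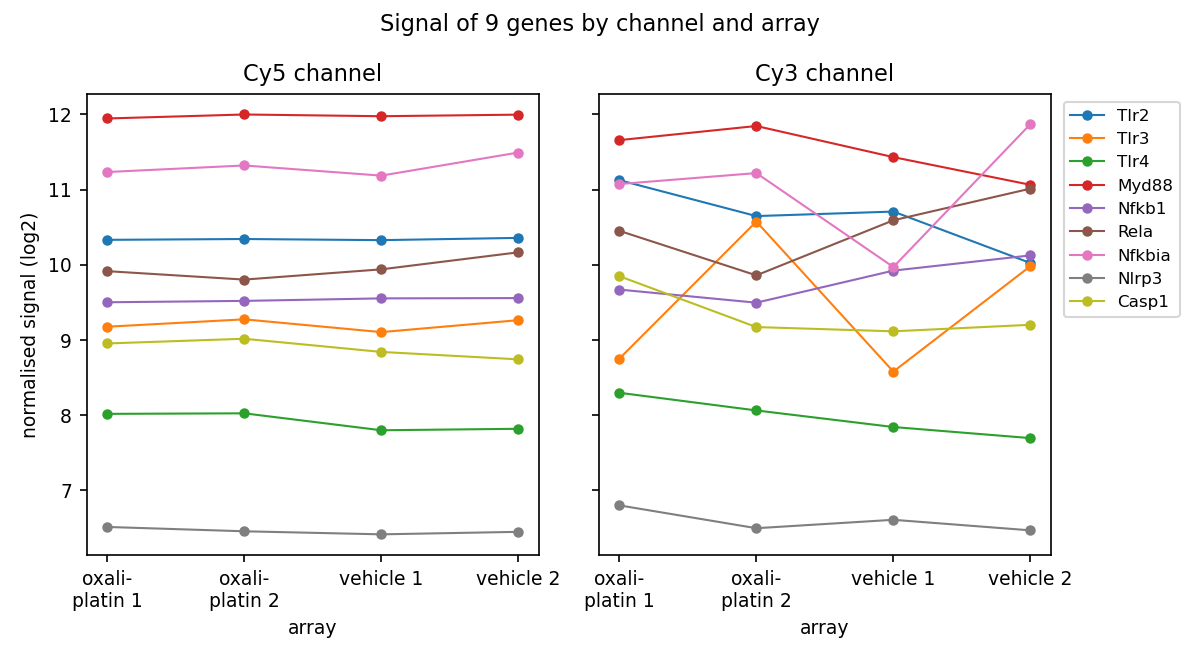
Normalised log2 signal (vertical axis) of 9 genes on each array (horizontal axis), in the Cy5 channel at the left and the Cy3 channel at the right. Each line joins the values of 1 gene, and the order of the arrays carries no meaning. The Cy5 lines are nearly flat, while in Cy3 Tlr3 moves between 8.58 and 10.57 and Nfkbia between 9.97 and 11.87.

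Within each array the labels set treated against untreated RNA, in Cy5 and Cy3. Because no dyes were swapped, dye and treatment cannot be told apart in this comparison. On the vehicle arrays 3 of the 8 genes passed the test against a ratio of 0 (limma, adjusted p under 0.05), beside 45.5% of all genes (23.4% higher in Cy5 and 22.1% lower). Myd88 was higher in Cy5, with a mean ratio of 0.74 (adjusted p = 0.00234), and Rela (-0.75, adjusted p = 0.00363) and Nfkb1 (-0.47, adjusted p = 0.00736) were lower. On vehicle replicate 1 alone the ratio was -0.37 for Nfkb1 and 1.22 for Nfkbia, beside -0.57 and -0.38 on vehicle replicate 2. Leaving out an oxaliplatin array, which changes only the estimate of the spread, Casp1 was called as well (-0.37). The calls over all genes on the vehicle arrays were 51.4% higher in Cy5, and 63.4% with median centring or 42.3% with the log ratio of the scanner software.

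On the oxaliplatin arrays 1 of the 8 genes passed, beside 34.8% of all genes (19% higher in Cy5 and 15.8% lower). This was Casp1, lower in Cy5 with a mean ratio of -0.53 ± 0.17 (adjusted p = 0.0490). The call was lost with the log ratio of the scanner software (-0.69, adjusted p = 0.0518) and with no filter on dim probes (adjusted p = 0.0522). Without oxaliplatin replicate 1 the ratio of Casp1 was -0.16. Tlr2 had a mean ratio of -0.55 ± 0.18 (adjusted p = 0.0579). Its ratio was -0.79 on oxaliplatin replicate 1 alone and -0.31 on oxaliplatin replicate 2 alone. On the same 2 arrays Tlr3 was at 0.43 and -1.30, and Rela at -0.54 and -0.056. A fit that keeps 1 array of a group takes the spread from the arrays of the other group. Myd88 (0.22), Nfkbia (0.13), Nfkb1 (-0.072) and Tlr4 (-0.16) were not called on the oxaliplatin arrays. The difference between these results and those of the vehicle arrays is the comparison of oxaliplatin with vehicle above, in which no gene passed.

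The other genes of the pathway were taken by role. In the comparison of oxaliplatin with vehicle none of them passed in either direction (0 called, and 0% of all genes). Their smallest adjusted p was 0.294. Apart from Irf7 and Txnip, the pathway genes given with values below were those with the smallest unadjusted p of their list in that comparison. They were thus chosen on these values. Where their groups lay apart, this is in part an outcome of that choice. Of 16 other Toll-like receptors and co-receptors, 13 had a probe and 7 were tested, with a median difference in the ratio of -0.093. The receptors Tlr5, Tlr8, Tlr9, Tlr10 and Tlr11 and the lipopolysaccharide-binding protein Lbp had probes that did not pass the filter in Cy5. Cd180, a Toll-like receptor homologue that restrains Tlr4 signalling in several immune cells, had ratios of -0.31 and 0.15 on the oxaliplatin arrays and of -0.86 and -0.74 on the vehicle arrays. The groups were apart, by 0.72 ± 0.17. The scavenger receptor Cd36 differed by -0.40 ± 0.18 and Ly96 (MD-2), the partner of Tlr4, by -0.12 ± 0.12.

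Of 20 adaptors and kinases downstream of the receptors, 15 were tested, with a median difference of 0.070, 10 above 0 and 5 below. Map3k7 (TAK1), the kinase that activates the IkB kinases, had ratios of 0.29 and -0.043 on the oxaliplatin arrays and of 0.70 and 0.95 on the vehicle arrays. Its groups were apart, by -0.70 ± 0.16, with a difference of 0.89 in Cy3 and of 0.19 in Cy5. Irak1, a kinase recruited by Myd88, differed by 0.45 ± 0.17, and Tollip, an inhibitor of that kinase, by 0.44 ± 0.17. Irf7, an interferon-induced factor downstream of Toll-like receptors, was also named after its values were seen, but as the largest difference of the list. Its ratios were -0.94 and 2.24 on the oxaliplatin arrays and 0.12 and -1.06 on the vehicle arrays, so the groups overlapped.

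Of 17 other NF-kB subunits, kinases and inhibitors, 13 were tested, with a median difference of 0.10, 10 above 0 and 3 below. The nuclear IkB protein Bcl3 differed by -0.40 ± 0.15. Tnip1, which works with Tnfaip3, differed by 0.28 ± 0.12, and the ubiquitin ligase Birc3 by 0.26 ± 0.12. For Tnip1 and Birc3 the difference lay in Cy5 (0.33 and 0.27) and hardly in Cy3 (0.053 and 0.010), unlike the 8 genes above.

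All 17 NF-kB target genes listed were tested, with a median difference of -0.050, 8 above 0 and 9 below. The adhesion molecule Vcam1 had ratios of -0.0060 and -0.11 on the oxaliplatin arrays and of 0.34 and 0.42 on the vehicle arrays, and differed by -0.44 ± 0.12. The chemokines Ccl2 and Ccl5 differed by -0.33 ± 0.20 and -0.53 ± 0.33, with overlapping groups. Of 23 other inflammasome genes, 16 were tested, with a median of -0.058. Mefv (pyrin), the sensor of another inflammasome, differed by -0.43 ± 0.11, the membrane-rupture protein Ninj1 by 0.34 ± 0.13 and Cd44, a hyaluronan receptor, by -0.30 ± 0.12. Txnip, a thioredoxin-binding protein that can activate Nlrp3, was also named after its values were seen. Its signal was higher on the oxaliplatin arrays by 1.79 ± 0.78 in Cy5 and by 1.497 ± 0.55 in Cy3. Its ratio thus differed by only 0.29 ± 0.21, and it was called in none of the 3. Across the 5 lists, the numbers of genes whose groups did not overlap were 2 of 7, 8 of 15, 7 of 13, 3 of 17 and 6 of 16, beside 49.2% of all genes. Il1b stood in both of the last lists.

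**Figure D4:**
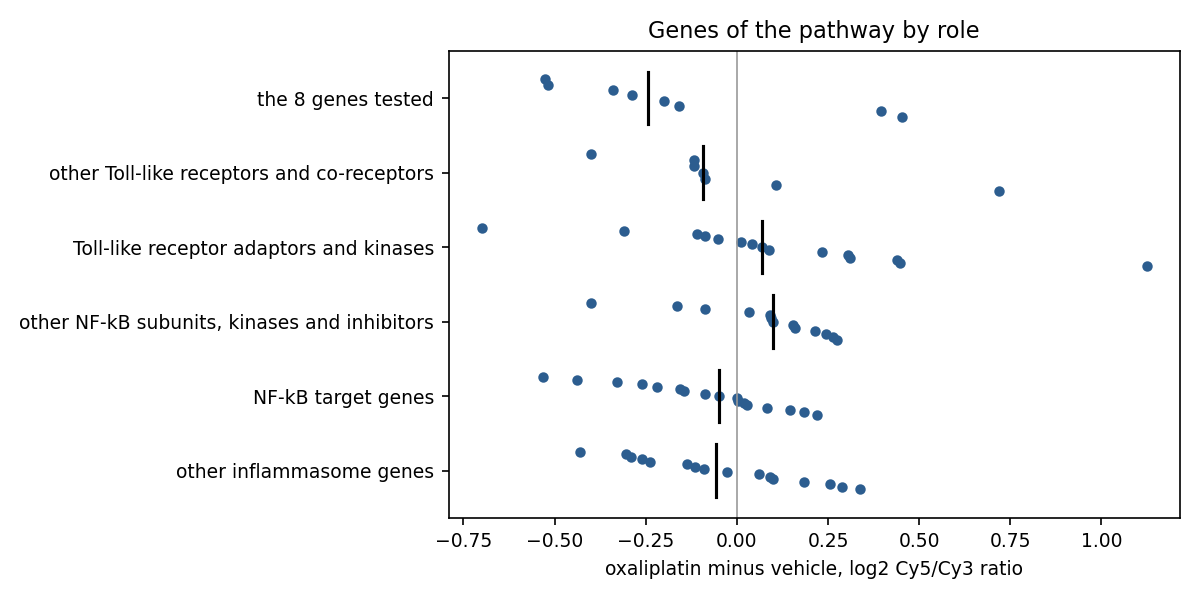
Difference in the log2 Cy5/Cy3 ratio, oxaliplatin minus vehicle (horizontal axis), of each tested gene (blue point) by role (vertical axis). Black bars are the medians, from -0.24 for the 8 genes to 0.10 for the other NF-kB subunits, kinases and inhibitors. The point furthest to the right is Irf7.

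Markers of cells that could carry these transcripts were measured beside them. All 10 microglia markers were well above background in both channels on at least 1 array, with median log2 Cy5/Cy3 ratios of -0.57 and -0.00088 on the oxaliplatin arrays and of -0.25 and -0.27 on the vehicle arrays. The microglia median was lowest on oxaliplatin replicate 1. Of the 8 genes tested, Tlr2, Tlr4 and Casp1 had their lowest ratio on that array, Tlr3 and Myd88 on oxaliplatin replicate 2, and Nfkb1, Rela and Nfkbia on vehicle replicate 2. Of these markers Aif1 had ratios of -0.49, 0.44, 0.069 and -0.056 on oxaliplatin replicates 1 and 2 and vehicle replicates 1 and 2. All 8 markers of blood monocytes and border macrophages were well above background, with medians of 0.27 to 0.49. Of 8 neutrophil markers, 5 were tested, with medians of 0.023 and 0.096 on the oxaliplatin and 0.33 and 0.28 on the vehicle arrays. Of 9 T and B cell markers 4 were tested, with medians of 0.078 to 0.17. Red blood cell genes had medians of 1.96 and -0.12 on the oxaliplatin arrays and of 0.56 and -0.25 on the vehicle arrays. Medians of astrocyte markers were -0.85 and -0.45 on the oxaliplatin arrays and -1.13 and -1.31 on the vehicle arrays, and those of endothelial cells were -0.22 to 0.082. Meningeal fibroblast markers had medians of 1.87 to 2.72. The part of any of these cells in the values of the 9 genes was not tested, and in tissue RNA fewer cells of a type and less RNA per cell cannot be told apart.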

How the data were processed

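Per the file headers, the deposited scanner output gives intensities as median pixel values of spots and of the background around them, made with Agilent Feature Extraction 10.7.1.1 (the submitters' processing notes name 8.5.1.1), and a log10 ratio of Cy5 over Cy3 after background subtraction and dye normalisation. The authors' deposited value table also gives log10 ratios, which lay within 0.0050 of these, with medians of -0.00492 to 0 per array. Its scale, centring and direction were thus known. Other deposited values, per the file headers, are flags. Intensities were corrected by normexp (offset 50) and ratios normalised by loess in limma 3.58.1 (R 4.3.3), leaving out 4259 control spots and outlier spots. Spots of a probe were averaged. Probes were named by accession without version (18758 of 30367). A probe was well above background if at least 0.5 of its spots were, and was kept if so in Cy5 on at least 2 arrays. The kept probe with the highest mean signal stood for a gene. Groups were compared by lmFit and eBayes (two-sided, with 2 residual and 4.74 prior degrees of freedom). The p-values were adjusted over all 22817 genes by Benjamini-Hochberg, and the test was checked on simulated data. Single channels were normalised by loess and Aquantile. Signals of single channels are on that log2 scale. The number of arrays limits the precision, and Nlrp3 lies near background. Named genes were the 10 members, up to 3 genes per pathway list with the smallest unadjusted p, and up to 2 bright markers per list, of which 1 is not reported here. The members and lists were chosen with earlier results of these data known. Alternatives were other ratios, centring, scaling, filters, probe means, a replicate block and leaving out each array. Samples were grouped by title, and 0 columns were left unmapped. The slide could not be used as a block.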

Additional observations from a re-analysis of the deposited data

How the results depend on the processing

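No member was called in the comparison of oxaliplatin with vehicle under any alternative except without oxaliplatin replicate 1 (1, Rela). Over all genes, leaving out an array gave 2 to 932 calls (932 and 15 when oxaliplatin replicate 1 or 2 was left out, 33 and 2 when vehicle replicate 1 or 2 was), the replicate block 3 and, added after seeing the data, a crossed replicate block 537. The deviations of same-numbered arrays correlated by -0.22 over genes, so the numbers were not taken to pair the arrays, and the block changed no call among the members. Wherever an array was left out, the lone array of its group was assumed to vary like the other group, which limits the calls of those fits. In ratio differences, leaving out an array gave Tlr2 -0.88 to -0.17, Tlr4 -0.32 to -0.079, Rela 0.21 to 0.69, Tlr3 -1.20 to 0.52, Nfkbia -1.08 to 0.51 and Casp1 -0.53 to 0.21.

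For Cy5 against Cy3 on the oxaliplatin arrays, the members called were 0 with the log ratio of the scanner software, with the authors' value table and with no filter on dim probes, 2 with median centring (Casp1 and Myd88) and with scaled ratios (Casp1 and Tlr2), and 1 to 3 leaving out an array. Median centring called 12195 genes there, and Nfkb1 was at 0.012. Leaving out an array gave Tlr3 -1.30 to 0.43 and Nfkb1 -0.17 to 0.024. On the vehicle arrays, leaving out an array gave 4978 (without vehicle replicate 2) to 12114 genes, with 3 to 4 members, Tlr2 -0.38 to 0.33, Tlr3 -0.72 to 0.53, Tlr4 -0.043 to 0.12 and Nfkbia -0.38 to 1.22. Tlr4 was at -0.038 with the log ratio of the scanner software and -0.038 with the authors' value table.

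In Cy5 alone, leaving out an array called 0 to 5585 genes (5585 without vehicle replicate 1, 760 without vehicle replicate 2) and gave Tlr2 -0.021 to 0.0093, Tlr3 -0.038 to 0.12, Myd88 -0.040 to 0.012 and Nfkbia -0.22 to 0.092. Median scaling within the channel, chosen after seeing the data, gave Tlr2 0.040, Myd88 0.086 and Tlr4 0.093. In Cy3 alone, leaving out an array called 0 to 2311 genes (2311 without vehicle replicate 1, 166 without vehicle replicate 2) and gave Tlr3 -0.53 to 1.29 and Nfkbia -0.72 to 1.18, and median scaling called 18 genes. The cause of these changes was not tested, beyond fewer arrays where one was left out. For single members, 262 values under the other settings kept direction and side of the threshold, 5 turned, 3 lost and 2 gained a call; leaving out an array, 131 kept both, 18 turned, 2 lost and 9 gained a call. No setting of the ratio moved the median of all genes by over 0.1, and the slide could not be fitted as a block because each group lay on a slide of its own.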

Other observations

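Beside the split of Nfkbia on the vehicle arrays (-1.59), several gene lists also had lower ratios on vehicle replicate 2 than on vehicle replicate 1. This held for all 7 genes of a list induced by glucocorticoids, hormones that also induce Nfkbia (median difference -0.42), for 10 of 10 interferon-induced genes (-0.82), for 5 of 5 red blood cell genes (-1.09) and for 5 of 5 neutrophil genes (-0.20), beside 50.7% of all genes. The first 2 lists were written after the values were seen. Other lists went the other way, with 0 of 12 Schwann cell and sensory ganglion neuron genes lower on vehicle replicate 2 (median 0.37). Dorsal horn neuron genes had 2 of 11 lower, T and B cell genes 1 of 4 and NF-kB target genes 6 of 17. On the oxaliplatin arrays 6 of the 7 glucocorticoid-induced genes were lower on replicate 2 (median -0.23), where Nfkbia differed by -0.059. Of all 22817 genes, 11718 were lower on oxaliplatin replicate 2 than on oxaliplatin replicate 1. The kinase Sgk1 had Cy3 signals of 10.54 and 13.22 on the vehicle arrays (log2), with vehicle replicate 2 the higher, as for Nfkbia. Other genes of the list did not share this: Fkbp5 had Cy3 signals of 11.63 and 11.65, and Per1 of 8.08 and 7.61, with Cy5 signals of 9.90 and 9.01. The part of any such response, or of the separate scans of the vehicle arrays, in the Nfkbia values was not tested.

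The split of Tlr3, itself inducible by interferon, differed from that of 10 interferon-induced genes, a list also written after the values were seen. Their ratio was lower on vehicle replicate 2 than on vehicle replicate 1 for all 10 genes, as for Tlr3. On oxaliplatin replicate 2 it was lower than on oxaliplatin replicate 1 for 0 of the 10 genes, with a median difference of 1.79, whereas Tlr3 differed by -1.73 there. Usp18, for example, had Cy3 signals of 10.98 and 7.84 on the oxaliplatin arrays and of 10.57 and 11.65 on the vehicle arrays, and Cy5 signals of 10.30 to 10.55. The Cy3 signals of Tlr3 thus moved with those of the interferon genes in 1 group and against them in the other. The part of interferon in the Tlr3 values was not tested.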
